A study of Mesocricetus auratus with 24 samples.

Results

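The windows described here are 143 stretches of 1 kb in the Syrian hamster genome whose CpG methylation differed widely between single-colony cultures while it stayed within a narrow range between pools of colonies. A window was taken when it had 5 or more measured positions in each of 16 libraries, a range (highest minus lowest library) of 40 or more percentage points over 8 colony libraries, and a range of 20 or less over 8 pool libraries. The 143 windows were 0.8414% of the 16996 windows with enough positions in those 16 libraries, out of 382924 windows listed in any of the 24 libraries of the study. They were chosen by the colony and pool levels themselves, so those levels are given as a description. Tests of MTc against Nc and of B[a]P against DMSO were fitted over all windows and use the same libraries, so their values at these windows are a description too.

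The assay, reduced representation bisulfite sequencing, reads CpG-rich restriction fragments after conversion of unmethylated cytosines; it was applied to fetal cells put through a colony-based cell transformation assay. The colony libraries were 4 cultures of morphologically transformed colonies (MTc) and 4 of colonies with normal morphology (Nc), all from colonies treated with 5 µg/mL benzo[a]pyrene (B[a]P) and expanded for 19 to 25 days. The pool libraries were 4 pools after 5 µg/mL B[a]P and 4 after the vehicle, 0.2% DMSO, each of about 60 colonies collected on day 9; colonies and pools came from cells of a single male fetus. A further 8 libraries, 4 of a culture that had bypassed senescence (SENbp, day 94) and 4 of the same culture in senescence (SEN, day 48), came from a B[a]P-treated MT colony out of an assay on pooled female and male fetuses, the culture being typed male. The study describes the first 16 libraries as biological replicates and the SENbp and SEN libraries as technical replicates. B[a]P, a polycyclic hydrocarbon that cells turn into DNA-reactive metabolites, was therefore given to every group except the DMSO pools. Colonies and pools differed in days of culture, in the number of founding colonies and in read depth, and 4 of the 8 pools had no B[a]P. These differences cannot be told apart in the ranges below.

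In vertebrates, methyl groups are placed on the cytosine of CpG dinucleotides, and a maintenance methyltransferase copies the pattern to the new strand at each DNA replication. A pattern present in the founding cell of a colony can therefore be passed to its descendants, while occasional losses and gains accumulate as cells divide. CpG-dense stretches are usually unmethylated and CpG-sparse ones usually methylated. A pool of many colonies averages over founders, and a single colony does not. In DNA from many cells, a level between 0 and 100% can come from a mixture of methylated and unmethylated cells or from partly methylated molecules in each cell, which cannot be told apart here.

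The libraries held 809562 to 1484688 CpG positions each, strands listed apart, with a median coverage of 21 to 38 reads per position. Coverage summed over positions was 42938360 to 67276906 in the colony libraries and 30316233 to 41673018 in the pool libraries. The part of this depth difference in the ranges was not tested. The 143 windows had a median of 624 reads per library and at least 50, a read being counted once for each position it covers. In every one of them the 95% Wilson intervals of the highest and the lowest colony did not overlap, which covers counting error only. These intervals treat reads as independent. In these windows, at library levels of 20 to 80%, positions with 20 or more reads were at exactly 0 or 100% in 55.9 to 72.1% of cases per colony library, 43.2 to 77.4% per pool library and 54.0 to 80.9% per SENbp or SEN library. The part of copied molecules in these values was not tested. The positions measured also differed between libraries, so levels of 1 window rest on partly different CpGs.

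Wide ranges were frequent among pools too. Of the 16996 windows, 1910 (11.24%) had a range of 40 or more over the colonies and 1564 (9.202%) over the pools, 932 of them over both. The rule leaves out these 932 and a further 835 windows with a colony range of 40 or more whose pool range lay between 20 and 40. The opposite rule, a pool range of 40 or more with a colony range of 20 or less, gave 111 windows (0.6531%), a count that stood close to the 143. In the 143 windows the median range was 48.1 points over the colonies (40 to 83.9) and 15.6 over the pools (1.94 to 20). The windows lie on a continuum, with colony ranges of 40, 40.02 and 40.04 just inside the limit and 39.99, 39.96 and 39.89 just outside. At the pool limit the ranges were 20, 19.89 and 19.78 just inside and 20 (unrounded, above the limit), 20.01 and 20.04 just outside.

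**Figure D1:**
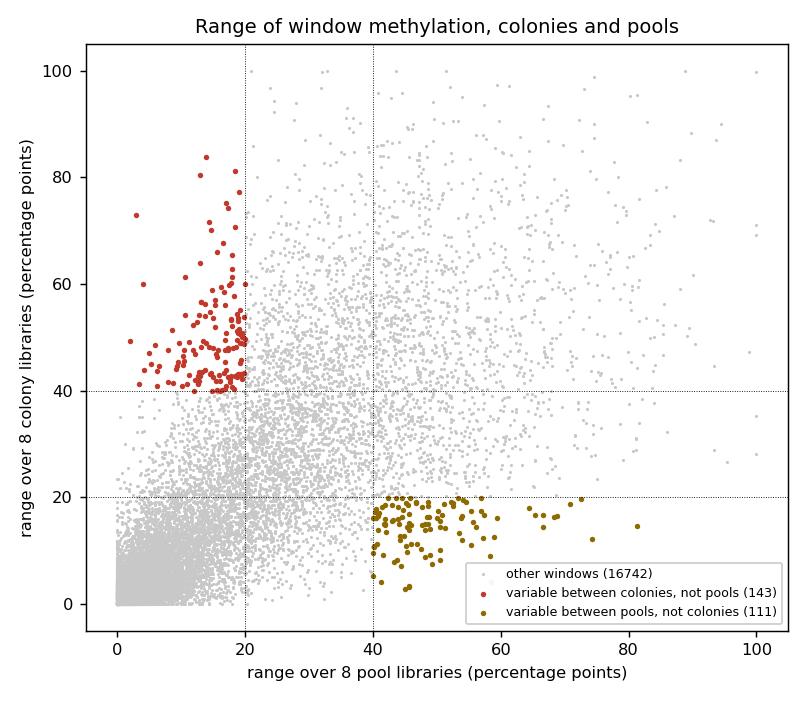
Each point is 1 of the 16996 windows, by its methylation range over the 8 pool libraries (horizontal axis, percentage points) and over the 8 colony libraries (vertical axis, percentage points); dotted lines mark 20 and 40. The 143 windows fill the upper left box and the 111 windows of the opposite rule the lower right box, and 932 windows lie above 40 on both axes.

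By level, the windows lay above the measured windows as a whole and below the other windows with a wide colony range. Their median level in the pools was 17.96% (0.243 to 96.5%), against 42.4% in the 111 windows of the opposite rule, 47.1% in the 1767 other windows with a colony range of 40 or more and 1.51% in all 16996. On positions shared by the 16 libraries, 1140 windows had enough positions and 17 met the rule, 5 of them among the 143. The median pool level of these 17, a largely different set of windows, was 36.15%. Of the 143 windows, 73 (51.05%) averaged under 20% in the pools, 20 (13.99%) from 20 to 50%, 19 (13.29%) from 50 to 80% and 31 (21.68%) at 80% or more. Over all 16996 windows the same classes held 75.32%, 6.566%, 8.867% and 9.249%. Windows near 0 or 100% in every library cannot reach a range of 40, so the classes are read with that in view. A wide pool range also keeps a pool mean away from 0 and 100%. The 1767 other windows and those of the opposite rule have wider pool ranges by the rule. The order of their median pool levels against the 143 therefore follows in part from the rule.

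By density, here taken as how many CpG positions a window had (each strand counted apart), the windows lay below all windows and above the other windows with a wide colony range. The median was 17.1 positions, against 16.4 for the opposite rule, 13.6 for the 1767 other windows with a colony range of 40 or more and 24.3 for all 16996. The quartiles of all windows, cut at 15.75, 24.25 and 35.38 positions, held 54, 59, 19 and 11 of the 143 windows from the sparsest to the densest (37.76%, 41.26%, 13.29% and 7.692%). Under the opposite rule they held 52, 34, 11 and 14 of 111, and the sparsest quartile held 64.74% of the 1767. Windows low in the pools were the densest class of the set, with a median of 20.2 positions under 20% and 12.7 at 80% or more. A level from fewer positions is less precise, and the share of this in the placement by density was not tested. The 143 windows were spread over 87 scaffolds, 56 of which held 1 of them. The scaffold with the most, KB708127.1, held 8 among its 719 windows with enough positions.

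**Figure D2:**
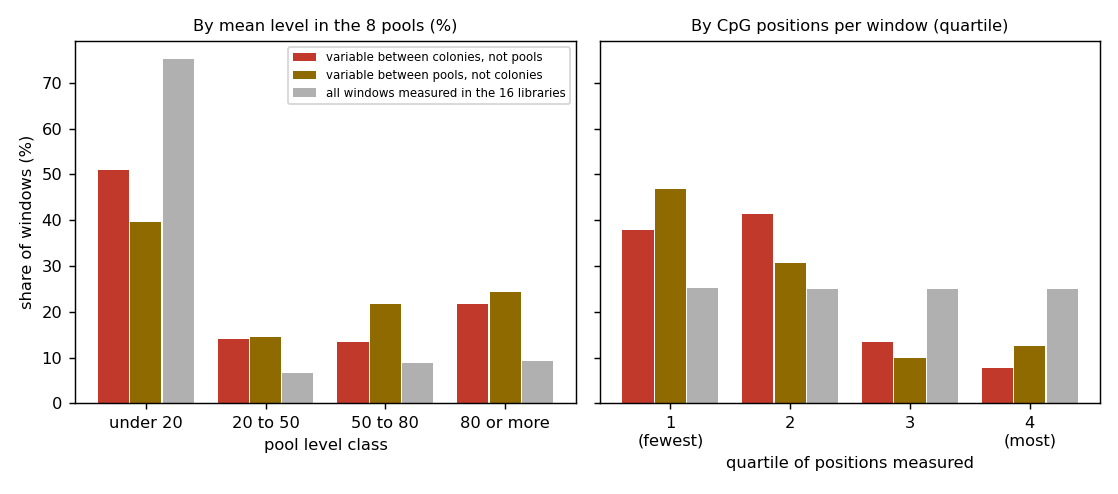
Share of windows (percent) by mean level in the 8 pools (left) and by quartile of CpG positions measured (right), for the 143 windows, the 111 windows of the opposite rule and all 16996 windows with enough positions. The 143 windows have 51.05% under 20% in the pools and 37.76% and 41.26% in the 2 sparsest quartiles.

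The 8 colony levels of each window were sorted, and the largest gap between neighbours was used to describe the pattern. In 51 windows (35.66%) that gap, of 20 or more points, set 1 colony above the others, in 28 (19.58%) 1 colony below them, and in 14 (9.79%) it left 2 or more on each side. In the other 50 (34.97%) no gap reached 20 points and the colonies were graded. The windows with 1 high colony had a median pool level of 6.10%, and 46 of them were under 20%. Those with 1 low colony had a median pool level of 85.4%, and 27 of them were at 50% or more. The opposite rule, read over pools, gave 41 windows with 1 high, 31 with 1 low, 6 split and 33 graded, so single libraries stood apart there too. Against the mean of the 8 pools, at least 1 colony lay 20 or more points above in 86 windows with none that far below, below in 47 with none that far above, and on both sides in 10. In 54 windows just 1 colony was that far above, and in 42 it was 2 or more.

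**Figure D3:**
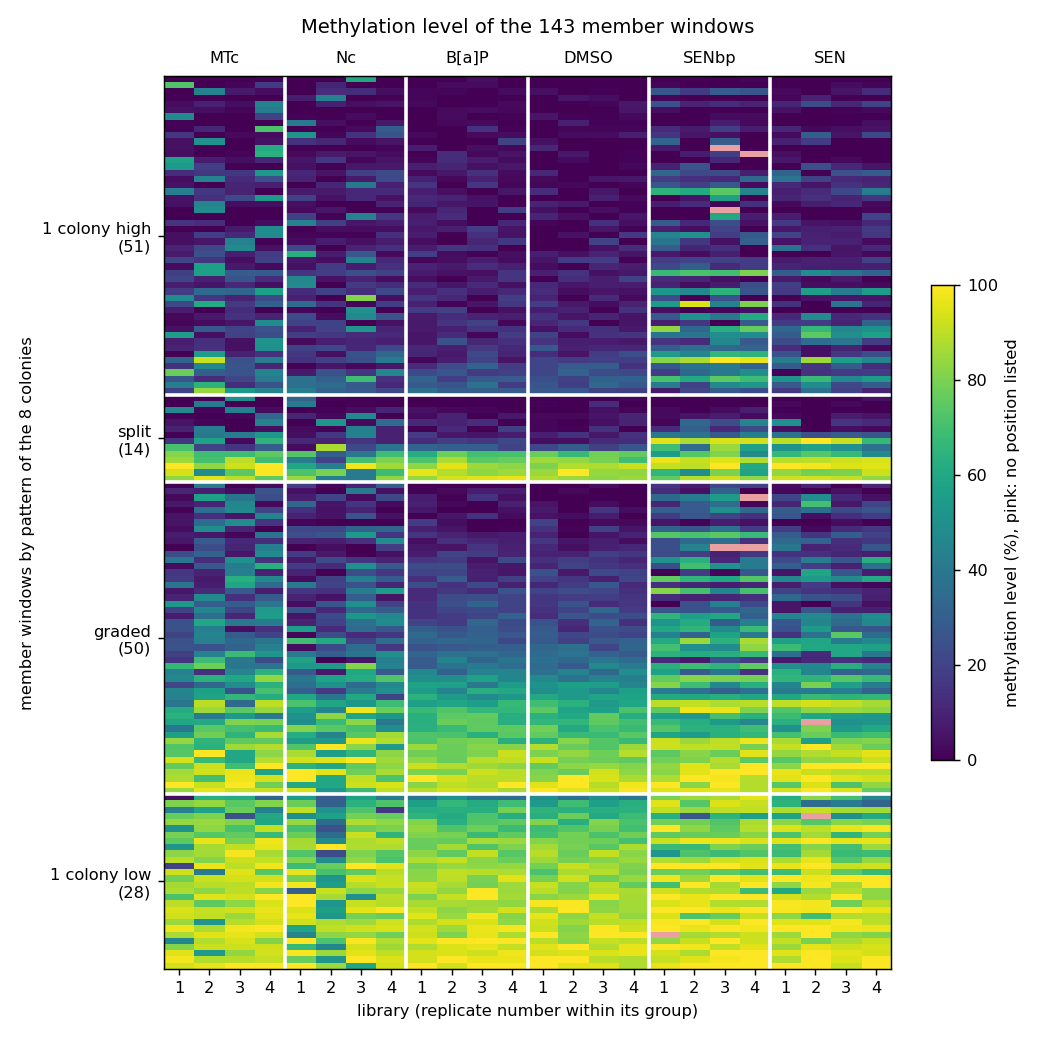
Methylation level (percent, colour) of the 143 windows (rows, grouped by colony pattern and ordered by pool level) in the 24 libraries (columns, by group and replicate number). The 8 colonies differ within each row by construction while the 8 pools are even, Nc replicate 2 is dark in many rows of the bottom block, and SENbp is brighter than the pools in many rows of the upper blocks.

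Windows with 1 low colony were mostly methylated in the pools and in the other colonies, a placement that the bounds favour. At KB708258.1:5240001-5241000 (coordinates as in the deposited tables), methylation was 19.6, 97.2, 90.2 and 97.95% in MTc replicates 1 to 4, against 68.7, 76.9, 100 and 95.1% in Nc replicates 1 to 4. It was 79.7, 84.4, 82.9 and 84.2% in the B[a]P pools, against 79.05, 91.9, 86.7 and 80.5% in the DMSO pools. MTc replicate 1 stood alone, and SENbp (95.9 to 100%) and SEN (91.5 to 100%) were near full methylation. In MTc replicate 1, 11 of its 18 positions were under 20%, against 0 of 19 in Nc replicate 3, the highest colony. On the 14 positions measured in both, these libraries differed by 92.2 points. The window had 8 to 23 positions and 558 to 1397 reads per colony or pool library.

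At KB708206.1:10566001-10567000, methylation was 87.8, 83.03, 89.8 and 81.7% in MTc, against 30.3, 91.6, 83.01 and 84.6% in Nc, and 81.5 to 99.5% over the pools. Nc replicate 1 alone was low, with 10 of its 21 positions under 20%, and the difference from Nc replicate 2 was 57.0 points on one strand and 73.0 on the other. SENbp averaged 84.3% ± 10.8 and SEN 79.4% ± 12.7 (SD, n = 4 technical replicates each). At KB708165.1:15177001-15178000, Nc replicate 2 was the low library at 23.4%, while the other Nc libraries lay at 73.0, 80.6 and 73.5%, the MTc libraries at 82.7 to 98.5% and the pools at 73.9 to 90.9%. There SENbp (52.6 to 72.7%) and SEN (67.9 to 86.3%) lay between the low colony and the highest ones. This window and the one on KB708206.1, with those on KB708133.1 at 287001, KB708163.1, KB708194.1 and KB708158.1, were picked after their values were seen. Further windows with 1 low colony were KB708269.1:3008001-3009000 (MTc replicate 2 at 41.3%, the other colonies at 70.9% or more) and KB708274.1:1526001-1527000 (Nc replicate 2 at 56.9%, the other colonies at 91.1% or more). At KB708269.1 the pool range was 25.45 points with an unweighted mean over positions, above the limit of the rule. At KB708274.1 from 1526001 the extreme colonies differed by 48.6 points on one strand and by 0 on the other, and with an unweighted mean over positions the colony range was 27.96 points and the pool range 21.2.

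Windows with 1 high colony were mostly low in the pools and in the other colonies, which the bounds likewise favour. At KB708127.1:48026001-48027000, methylation was 0.6, 55.01, 9.33 and 14.6% in MTc, against 16.1, 4.65, 25.2 and 33.5% in Nc, and the pools lay at 5.23 to 23.9%. MTc replicate 2 was the high library, by 34.7 points over the lowest on the 12 positions both had, and the strands gave 61.7 and 15.2 points. The pool range with an unweighted mean over positions was 24.6 points, above the limit of 20. At KB708252.1:4894001-4895000, MTc replicate 2 was again highest at 46.2%, the other MTc libraries lay at 14.8, 25.9 and 10.9%, and Nc at 1.03 to 6.55%. One strand carried this difference (56.9 points) and the other did not (-3.21 points). The pool range there was 39.3 points over the 4 positions shared by the 16 libraries, and with an unweighted mean over positions the colony range was 30.1 and the pool range 28.8, both outside the limits of the rule. The largest gaps of all, at KB708194.1:7379001-7380000 (Nc replicate 3 at 60%, every other colony at 1.02% or less) and KB708158.1:14401001-14402000 (MTc replicate 4 at 64%, every other colony at 7.07% or less), did not hold on shared positions. The extreme colonies differed there by 8.20 points over 4 positions and by 0 over 2.

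Among split and graded windows, colonies of the same morphology could lie at both ends. At KB708322.1:1541001-1542000, the window with the most data among those named (45 to 83 positions and 1253 to 4715 reads per colony or pool library), methylation was 39.2, 89.8, 34.04 and 90.1% in MTc, against 71.2, 58.7, 52.8 and 68.5% in Nc. The pools lay between, at 56.2, 59.1, 55.6 and 66.8% in B[a]P, against 69.4, 63.7, 54.2 and 59.4% in DMSO. MTc replicates 2 and 4 were higher and MTc replicates 1 and 3 lower than every pool, so the MTc mean of 63.3% ± 30.9 stood beside an Nc mean of 62.8% ± 8.58 (SD, n = 4 each). On the 41 positions that MTc replicates 4 and 3 share they differed by 58.7 points, and by 57.7 and 52.8 on the separate strands. Over the 10 positions that all 16 libraries share, however, the colony range was 62.95 points and the pool range 42.5, so on those positions the pools were not within the limit of 20. In MTc replicate 4, 62 of 71 positions were above 80%, against 11 of 55 in MTc replicate 3. SENbp (89.4% ± 1.37) and SEN (90.1% ± 2.67) were at the level of these 2 high colonies (SD, n = 4 technical replicates).

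At KB708133.1:287001-288000, methylation was 15.6, 57.8, 2.198 and 65.02% in MTc, against 11.5, 9.88, 14.9 and 9.12% in Nc. The B[a]P pools were at 11.8, 18.2, 15.8 and 21.8%, against 3.81, 4.01, 12.1 and 13.01% in the DMSO pools. With an unweighted mean over positions the pool range was 23.7 points, above the limit of 20. MTc replicates 2 and 4 were again the high ones, SENbp was at 95.4, 87.2, 94.2 and 93.6% and SEN at 90.1, 100, 91.7 and 66.9%, above every colony and pool. At KB708199.1:5930001-5931000, by contrast, the high colonies were of both kinds, with 5.66, 1.39, 0 and 44.5% in MTc, against 0, 52.9, 2.38 and 34.98% in Nc, and pools at 0 to 12.5%; the 16 libraries share 7 positions there, over which the colony range was 97.0 points and the pool range 18.9. At KB708163.1:16487001-16488000, MTc replicate 2 (39.98%) and Nc replicate 1 (41.2%) stood above the other colonies, all at 0.941% or less, with pools at 0 to 12.63%. On the 20 positions that the extreme colonies share they differed by 25.3 points, under the limit of 40. The separate strands, over all positions, gave 40.8 and 42.1 points.

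At KB708274.1:1131001-1132000, where all 16 libraries measured the same 5 positions, the colonies were spread without a gap, at 15.3, 68.5, 39.6 and 23.03% in MTc, against 57.5, 0.715, 5.87 and 42.9% in Nc, with pools at 28.7 to 45.1%. SENbp (6.84 to 25.4%) and SEN (6.96 to 13.6%) overlapped each other below the pools. At KB708302.1:1068001-1069000, MTc was at 93.5, 48.2, 74.7 and 99.4%, against 71.96, 79.9, 40.9 and 69.1% in Nc, with pools at 82.99 to 99.7%. Over the 5 positions shared by the 16 libraries the colony range was 59.5 points and the pool range 16.1.

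**Figure D4:**
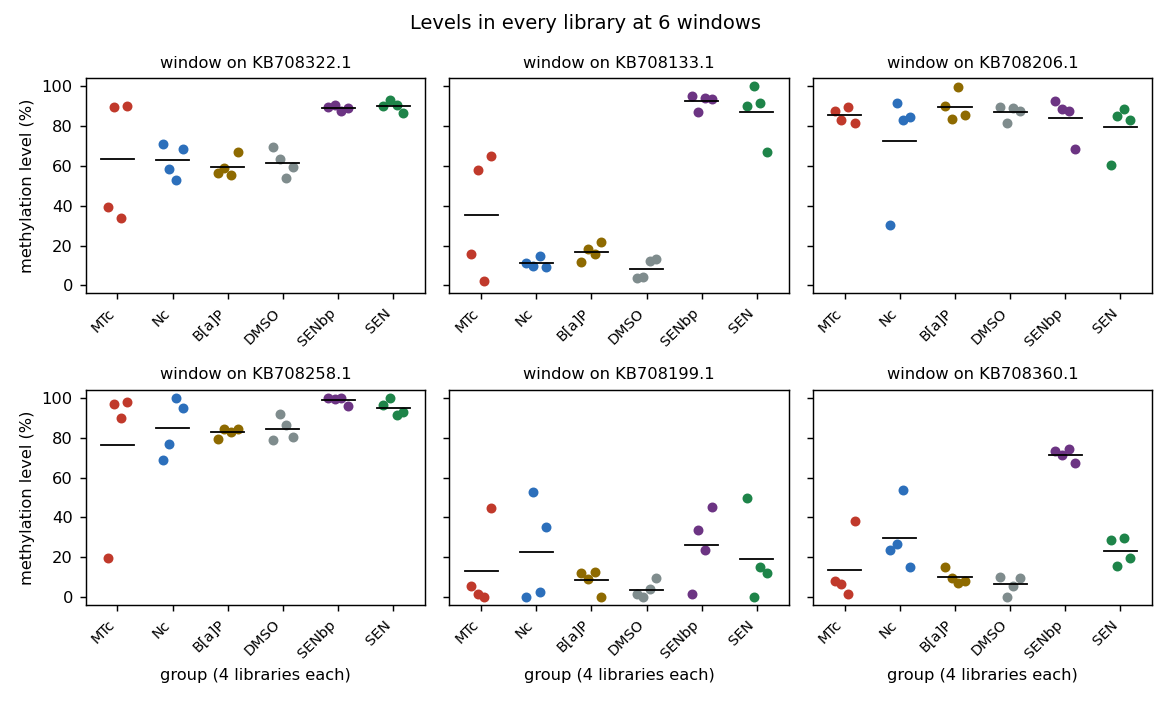
Methylation level (percent) in each library (points) and group mean (bars) at 6 of the windows, for MTc, Nc, B[a]P, DMSO, SENbp and SEN (4 libraries each). At KB708322.1 MTc falls into 2 high and 2 low libraries around the pools, at KB708206.1 and KB708258.1 a single colony is low, at KB708133.1 both SENbp and SEN lie above the pools, and at KB708360.1 SENbp lies above every other library.

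Single colonies contributed unequally. The number of windows 20 or more points above the pool mean was 14, 31, 18 and 34 in MTc replicates 1 to 4, against 15, 4, 25 and 12 in Nc replicates 1 to 4. The number that far below was 10, 7, 6 and 3 in MTc, against 12, 29, 8 and 6 in Nc. MTc replicate 4 was the highest colony in 35 windows and MTc replicate 2 in 26, while Nc replicate 2 was the lowest in 40 and stood alone as low in 14 of the 28 windows with 1 low colony. MTc replicates 2 and 4, the 2 colonies most often that far above, were both 20 or more points above the pools in 9 windows, the most of any pair. A pair of both morphologies, MTc replicate 4 and Nc replicate 3, followed with 8. Nc replicate 2 also had the lowest mean over all 16996 windows, 17.1%, where the 8 colonies ran from 17.1 to 19.9% and the pools from 17.5 to 18.4%; its median coverage of 38 reads per position was the highest. The part of this in its low windows was not tested. Without it the rule gave 122 windows, 117 of them among the 143, and without each other colony in turn 119 to 140.

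**Figure D5:**
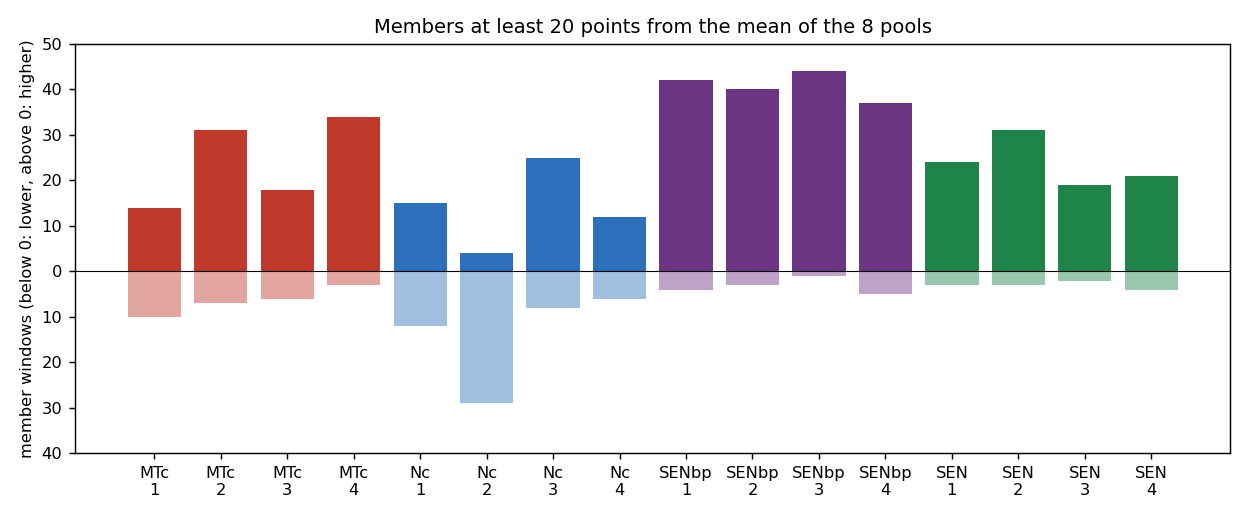
Number of the 143 windows in which a library lay 20 or more points above (bars up, full colour) or below (bars down, pale) the mean of the 8 pools, for MTc, Nc, SENbp and SEN libraries by replicate number. MTc replicates 2 and 4 reach 31 and 34 above, Nc replicate 2 reaches 29 below, and SENbp and SEN libraries lie mostly above; they had 5 positions in 131 to 142 of the windows.

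Colony morphology was set against these windows because the study compared transformed with normal colonies. Averaged over the 143 windows, methylation was 42.3% ± 4.21 in MTc and 36.6% ± 5.05 in Nc, and 36.2% ± 0.472 in B[a]P pools and 35.3% ± 0.757 in DMSO pools (SD, n = 4 libraries each). The MTc libraries stood at 37.4, 44.5, 40.5 and 46.9%, against 37.2, 29.6, 41.7 and 37.9% in Nc, so the groups overlapped. The MTc mean was above the Nc mean in 101 of 143 windows, where 53.5% of all 16996 windows had this direction, with a median difference of 7.86 points (-19.7 to 25.95), against 0.0825 in all windows, most of which are near 0. Among windows tested, which leaves out those near 0 or 100%, the MTc mean was higher in 96 of the 137 (70.1%), against 60.0% of the 5772 with enough positions in the 16 libraries, whose median difference was 1.82 points. The count of 101 rested in part on single cultures: 87 windows had that direction without Nc replicate 2 (median 5.66 points), and 94 without MTc replicate 4 (median 4.89 points). The highest colony was MTc in 89 windows and Nc in 54, and the lowest was MTc in 61 and Nc in 82. Of the windows with 1 high colony, 35 had an MTc and 16 an Nc library there; of those with 1 low colony, 8 had MTc and 20 Nc.

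Colonies of the same morphology differed widely at most of these windows. A range of 40 or more was found within MTc in 65 windows and within Nc in 59, counts that include 8 windows with both; 27 windows reached it only across the groups. Of the 137 windows tested for MTc against Nc, the 4 libraries of each group did not overlap in 5 (3.65%), 4 higher and 1 lower in MTc, against 3.14% of all 26825 windows tested and 2.74% of the 5772 with enough positions in the 16 libraries. The test, a quasi-binomial model with squeezed dispersions and Benjamini-Hochberg adjustment over all windows tested, called 0 of the 137, with a background of 0.0% (0 of 26825), and edgeR's quasi-likelihood test likewise called 0. At an unadjusted p under 0.05 the model had 24 of the 137 (17.5%), against 8.12% of all windows tested, 9.16% of the 5772 and 13.6% of other windows with a colony range of 40 or more. edgeR had 5 of the 137 (3.65%), near its 2.91% over all windows tested. Without squeezing of the dispersions the model had 6 of the 137 (4.38%), against 7.02% of all windows tested, so the order of these shares depended on that step. The rule used the range of these libraries, so the shares are a description. The smallest p among the 143 was at KB708284.1:678001-679000, with 5.29, 34.96, 48.95 and 15.2% in MTc, against 1.57, 0.045, 0 and 0% in Nc (p = 0.000203, quasi-binomial model across all windows, adjusted p = 0.428). All MTc libraries were above all Nc libraries there, while 1 B[a]P pool (17.9%) and 1 DMSO pool (19.3%) lay within the MTc range. At KB708265.1:1908001-1909000 and KB708218.1:6925001-6926000, the next by p, Nc replicate 1 was the lowest colony, at 58.3% and 45.5%; the other Nc libraries lay at 90.3, 92.6 and 93.9%, and at 82.6, 83.8 and 77.9%. At KB708218.1 these 3 also lay below every MTc library (87.2% or more), and at KB708265.1 they overlapped with MTc (87.7 to 99.96%). With an unweighted mean over positions the colony ranges at KB708284.1, KB708265.1 and KB708218.1 were 39.1, 20.45 and 31.05 points, all under the limit of 40, and the pool range at KB708284.1 was 25.

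Treatment of the pools gave no called window either. Of the 107 windows tested for B[a]P against DMSO, 0 were called, with a background of 0.0% (0 of 18421). At an unadjusted p under 0.05 both the quasi-binomial model and edgeR's quasi-likelihood test had 1 of the 107; over all windows the model had 6.36%, and 7.21% of the 5492 with enough positions in the 16 libraries. The groups did not overlap in 2 of the 107 (1.87%), against 2.87% of all windows tested and 2.97% of the 5492. The rule caps the range of these pools, so few differences could appear, and nothing is read from these counts.

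The rule did not use the SENbp and SEN libraries, but it did use the colony and pool levels they are set against here. Over the 116 windows with 5 positions in all 24 libraries, methylation averaged 48.1% ± 1.29 in SENbp and 40.8% ± 1.87 in SEN (SD, n = 4 technical replicates each). The same windows averaged 40.3% ± 4.13 in MTc and 35.2% ± 5.44 in Nc, and 33.9% ± 0.460 in B[a]P pools and 33.2% ± 0.666 in DMSO pools (SD, n = 4 each). The SENbp libraries were at 48.2, 47.0, 49.9 and 47.4%, against 39.9, 43.6, 39.8 and 39.9% in SEN, without overlap. The SENbp mean lay 20 or more points above the pool mean in 35 of the 116 windows, where 9.08% of the 13840 windows measured in all 24 libraries did, and as far below in 2 (0.47% of the 13840). The SEN mean did so in 20 (4.21%) and 1 (0.368%). Windows of the opposite rule had 12 and 0 of 87 for SENbp, and 7 and 0 for SEN. A SENbp mean 20 or more points away on either side was found in 31.9% of the 116 windows, against 43.5% of windows with a colony range of 40 or more that missed the pool limit. For the SEN mean the shares were 18.1% in the 116, against 27.6% in those windows, and these differences were not tested. The culture came from another assay and other fetuses, so culture age, origin and clone cannot be told apart.

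The spread within each group of 4 was also read. The median range over 4 libraries was 39.4 points in MTc and 35.4 in Nc, 12.2 in B[a]P and 11.2 in DMSO pools, and 16.6 in SENbp and 13.8 in SEN. The first 4 values follow from the rule, so their order against SENbp and SEN is not read. Over all 13840 windows measured in the 24 libraries the median ranges were 3.67 points in MTc and 3.66 in Nc, 3.32 in B[a]P and 3.53 in DMSO pools, and 5.66 in SENbp and 4.55 in SEN. A range of 40 or more was found in 4.335% of them in MTc and 5.058% in Nc, 2.775% in B[a]P and 3.931% in DMSO pools, and 2.977% in SENbp and 2.211% in SEN, so the order of the groups differed between the median and the wide ranges. At windows of the opposite rule, the ranges were 17.1 in SENbp and 13.4 in SEN, near those at the 143.

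Between SENbp and SEN, 15 of the 108 windows tested were called (13.9%), all 15 higher in SENbp. Over all 24638 windows tested 3.62% were called, 3.31% higher and 0.304% lower, and over the 6569 of these with enough positions in the 16 colony and pool libraries 7.25%, with 6.94% higher and 0.304% lower. Other windows with a colony range of 40 or more were called in 102 of 1479 cases (6.9%), and windows of the opposite rule in 4 of 83 (4.82%). The median difference was 5.12 points over the 108 windows and 5.01 over the 6569, and an unadjusted p under 0.05 was reached by 32 of 108 (29.6%), by 28.3% of the 6569 and by 19.9% of all. The 4 libraries of each group did not overlap in 15 of the 108 (13.9%), all higher in SENbp, against 15.6% of the 6569 and 10.6% of all windows tested. edgeR's quasi-likelihood test called 0 of the 108, as it called 0 of all windows, with adjusted p of 0.107 to 0.431 at the 15. Of the 15 windows, 12 averaged under 20% in the pools, as did 51.05% of the 143 and 75.32% of all 16996, and 9 were of the pattern with 1 high colony, as were 51 of the 143. The SENbp mean lay above every colony at 9 of the 15, and at 18 of the 116 windows and 3856 of the 13840 measured in all 24 libraries. The rule used the range of the colonies, so these counts are a description and nothing is read from their order. The p-values for SENbp against SEN measure the technical spread within 1 culture at each time.

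Of the 5 largest called differences, 4 were at windows that averaged under 20% in the pools. At KB708360.1:243001-244000, methylation was 73.2, 71.3, 74.4 and 67.5% in SENbp, against 28.7, 15.5, 29.9 and 19.4% in SEN (difference 48.3 points, quasi-binomial model, adjusted p = 0.00113). The SEN libraries lay among the colonies, which were at 8.09, 6.39, 1.74 and 38.3% in MTc, against 23.5, 26.6, 53.6 and 15.03% in Nc, and the pools lay at 0 to 15.2%. At KB708240.1:6297001-6298000, methylation was 81.7, 70.5, 45.6 and 70.8% in SENbp, against 19.5, 15.1, 13.4 and 9.499% in SEN (difference 52.8 points, quasi-binomial model, adjusted p = 0.0024), with colonies from 6.03 to 55.3%. The extreme colonies there differed by 29.85 points on the 4 positions they share, and by 50.3 and 49.97 on the separate strands. At the window on KB708127.1 from 48026001, where MTc replicate 2 was the high colony, methylation was 55.01, 46.6, 66.2 and 64.9% in SENbp, against 25.02, 4.68, 15.97 and 23.6% in SEN (difference 40.9 points, quasi-binomial model, adjusted p = 0.00606).

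The windows on KB708360.1, KB708240.1 and KB708127.1 were among 6 that stayed called when each SENbp or SEN library was left out in turn, and 9 did not. At KB708143.1:22023001-22024000, methylation was 54.4, 94.5, 44.3 and 80.2% in SENbp, against 14.5, 0, 38.6 and 10.3% in SEN, and the call was lost without SENbp replicate 4 or SEN replicate 4 (adjusted p = 0.0174 with all libraries, and 0.0152 to 0.114 with 1 left out). At KB708222.1:6444001-6445000, where the difference was 44.75 points and 1 colony was low, with a pool mean of 62.0% and a colony mean of 70.5%, methylation was 95.1, 73.8, 94.7 and 91.7% in SENbp, against 64.8, 36.1, 42.5 and 32.8% in SEN. The call there was lost without SENbp replicate 3 or 4 or SEN replicate 3 or 4 (adjusted p = 0.0181, and 0.0107 to 0.0627 with 1 left out). Read coverage relative to SEN was lower in SENbp (log2 ratio under -0.5) on 10 of 251 scaffolds, which held 7 of the 143 windows and 1 of the 15, on KB708217.1 from 2039001 (log2 ratio -1.06). KB708158.1, named above, was another of them (log2 ratio -0.62).

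The levels were read again in other ways. With an unweighted mean over positions, 58 of the 143 windows and 12 of the 22 named here still met the rule; of the other 10 named, the colony range was under 40 in 7 and the pool range above 20 in 6, with 3 in both. The difference between the extreme colonies was also taken on positions that both libraries measured. Of 129 windows with 3 or more such positions, the difference was 40 points or more in 90, 20 or more in 113, and 0 or reversed in 7, with a median of 45.9 points. Of 114 windows with 2 or more positions on each strand in both libraries, both strands gave 20 points or more in 91 and 40 or more in 49, and a strand gave 0 or less in 9. Under the opposite rule, read over the extreme pools, 41 of 84 windows kept 40 points on shared positions and 19 were at 0 or reversed, with a median of 39.1. Both strands gave 20 points or more in 31 of 51. The choice of extremes favours large differences in both sets, so these counts are a description.

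Neighbouring windows were also read, since methylation is often shared over more than 1 kb. Of 49 adjacent windows with enough positions, 15 (30.61%) had a colony range of 40 or more themselves, against 7.459% of neighbours over all 16996 windows and 26.77% of neighbours of other windows with such a colony range. The median range of the 49 was 11.4 points. The same colony was highest in 17 of 47 pairs (36.17%), against 20% next to other windows with a colony range of 40 or more and 13.86% next to any window. The same colony was lowest in 5 of 25 pairs (20%), against 19.37% and 15.21%. At a distance of 2 windows the highest colony was the same in 4 of 20 pairs (20%). It was so in 18.47% for other windows with a colony range of 40 or more and 16.25% for any window. Of the windows at that distance, 20% had a colony range of 40 or more, against 22.81% and 12.41%. Adjacent windows can hold parts of the same sequenced fragments, whose part in this was not tested.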

How the data were processed

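Reduced representation bisulfite libraries of 24 samples were used, 4 in each of 6 groups given by the labels. Named in the submitters' processing notes, without roles, are Bowtie2, Bismark 0.22.1, methylKit 1.10.0, Trim Galore 0.5.0, bcl2fastq 2.20.0.42 and R 3.6.1. No genome build was given in the sources used here. Per the file headers, the authors' deposited tables hold, for each CpG position and strand, the coverage as a read count and the percent of reads with C (methylated) and with T. No position under 10 reads is listed, and removal of PCR copies cannot be read from the counts.

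The level of a 1 kb window was the coverage-weighted percent over its positions. Windows, lists and rules were chosen with earlier results of these data known, and the processing alternatives added later were chosen after seeing the data.

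Windows were tested with quasi-binomial logistic regression on methylated against unmethylated reads (3 or more positions per library, pooled level 5 to 95%, the top 0.1% of coverage left out). Dispersions were squeezed with limma 3.58.1 within 10 level classes (R 4.3.3), with Benjamini-Hochberg adjustment over all windows tested. Calls needed an adjusted p under 0.05 and group means 10 or more points apart. The alternative test was edgeR 4.0.16 quasi-likelihood on the same counts. The test was tried on simulated data. Window sums used Python 3.11.15 with pandas 2.3.3. Alternatives changed the read minimum, positions per window, weighting, strands, thresholds and libraries.

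The windows named were the 6 with the largest colony range, and the 2 with the largest gap per pattern, among those with 100 or more reads per library whose colony range was 40 or more also on positions shared by the 16 libraries; the 3 with the smallest p for MTc against Nc; and the 5 called with the largest difference for SENbp against SEN. A further 6 were chosen after their values were seen. No gene is named and no sequence is printed, because no genome or annotation of the deposited coordinates' assembly was used here.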

Additional observations from a re-analysis of the deposited data

Results flagged for a closer look

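In groups of 4 libraries, a value was looked at again when the gap that set it apart took up most of the group's range. Of 148 groups examined, 27 stood out, 12 of them colony groups at named windows. A chance rate of about 1 in 20 groups holds for normally distributed values. These levels are bounded, so that rate is not a measure for them. Where the other libraries of a group were all at 0, any value above 0 stood out. This was so in SEN at the named windows on KB708284.1, KB708194.1 and KB708158.1, and in Nc and B[a]P at the one on KB708194.1. The rule for the windows also selects colonies far apart, so these counts are a description. Causes were not tested.

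Means were taken over the windows in which each library had 5 or more positions, and these windows differed between libraries. SENbp replicate 3 (51.19%) stood above the other SENbp libraries (47.42 to 48.01%) and SEN replicate 2 (43.76%) above the other SEN libraries. Over the 116 windows with 5 positions in all 24 libraries, SENbp replicate 3 was at 49.88%, against 46.98 to 48.2% in the other SENbp libraries. There SEN replicate 2 was at 43.6%, against 39.75 to 39.93% in the other SEN libraries.

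Single MTc libraries stood apart at KB708258.1 from 5240001 (19.62%), KB708199.1 from 5930001 (44.52%), KB708158.1 from 14401001 (64.0%) and KB708163.1 from 16487001 (39.98%). Single Nc libraries stood apart low at KB708274.1 from 1526001 (56.89%), KB708265.1 from 1908001 (58.27%), KB708218.1 from 6925001 (45.55%), KB708206.1 from 10566001 (30.29%) and KB708165.1 from 15177001 (23.39%). Single Nc libraries were high at KB708194.1 from 7379001 (60.0%), KB708163.1 from 16487001 (41.2%) and KB708284.1 from 678001 (1.566%).

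Among the pools, B[a]P replicate 3 was high at KB708194.1 from 7379001 (3.974%). Single DMSO pools stood apart at KB708302.1 from 1068001 (99.69%), KB708284.1 from 678001 (19.26%), KB708218.1 from 6925001 (83.33%), KB708158.1 from 14401001 (6.954%) and KB708163.1 from 16487001 (12.63%).

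Single SENbp libraries stood apart at KB708258.1 from 5240001 (95.87%), KB708274.1 from 1526001 (97.13%) and KB708222.1 from 6444001 (73.76%). Single SEN libraries did so at KB708284.1 from 678001 (3.279%), KB708194.1 from 7379001 (0.3235%), KB708158.1 from 14401001 (4.032%) and KB708165.1 from 15177001 (86.33%).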

How the results depend on the processing

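The number of windows that meet the rule depended on its settings. It was 66 with 20 reads per position (41 of the 143 among them), 308 with 3 and 46 with 10 positions per window, 357 and 56 with a colony limit of 30 and 50, and 64 and 320 with a pool limit of 15 and 25. It was 17 over positions shared by the 16 libraries. When each strand alone had to pass, with 3 or more positions per strand, it was 0 of 4473 windows. Of the 143, 22 could be measured so. The extremes of 90 differed by 40 points or more on 3 or more shared positions. With an unweighted mean over positions the count was 138, but 58 of the 143 were among them. A range cannot widen when a library is left out. Leaving out 1 colony gave 119 to 140 windows, and leaving out 1 pool gave 183 to 253, with all 143 kept. The highest counts were without DMSO replicate 2 (253), B[a]P replicate 3 (239) and DMSO replicate 3 (222), where 18820, 18289 and 17847 windows had enough positions. The median pool level of the windows that met the rule was 13.5 to 22.32% with 1 colony left out, 14.87% with 20 reads per position and 16.64% unweighted. For SENbp against SEN, 891 windows were called in all and 15 of the set. edgeR called 0 and 0, the test without squeezing 170 and 1, and 20 reads per position 445 and 8. Restricting to windows with enough positions in the 16 libraries left 476 calls. Leaving out 1 library gave 427 to 726 calls in all and 8 to 11 in the set. For MTc against Nc and B[a]P against DMSO, leaving out 1 library gave 0 to 2 and 0 to 1 calls in all, and 0 in the set.

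Deviations of same-numbered libraries from the group means were hardly correlated, at -0.0319 to 0.0111. A library correlated best with its own number in 0 of 4 pairs for SENbp against SEN, 0 of 4 for MTc against Nc and 3 of 4 for B[a]P against DMSO. For the pools, correlations this small do not settle whether the numbers pair. With a replicate block, 513 windows and 7 of the set were called for SENbp against SEN, 23 and 0 for MTc against Nc, and 9 and 0 for B[a]P against DMSO.

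Depth limits these results, since positions differ between libraries. Of the 143 windows, 113 had at least 1 position with 20 reads in each of the 16 libraries. The rule needs 5 such positions, and 41 of the 143 met it at that depth. Any position common to all 16 libraries was found in 31 windows. Of the 12 with 5 or more such positions, 5 met the rule on them.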
